A study of Yarrowia lipolytica with 6 samples.

Results

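The lower glycolysis and pyruvate dehydrogenase genes described here are 4 genes of the oil yeast Yarrowia lipolytica: TPI1 (YALI0_F05214g), ENO1 (YALI0_F16819g), PYK1 (YALI0_F09185g) and PDA1 (YALI0_F20702g). They were chosen by locus tag because each of them is listed in the authors' deposited DESeq2 table, which holds 2840 genes, as higher in a strain without SNF1 than in its parent. The adjusted p-values and fold changes of that comparison therefore chose the genes, and every wild type against deletion value below is a description and not a test. Of the 4 genes, 3 could be tied to a protein-coding row of the deposited counts, and PYK1 could not.

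The parent strain is CXAU/AI, called wild type in the labels, and the other strain is ∆Snf1, made by homologous recombination. Each group has 3 libraries, described in the labels as biological replicates. Whether the deletion strain is 1 clone is not given in the sources used here. All 6 cultures, wild type included, were precultured for 48 h and grown for 24 h at 30 °C in uracil-containing SG medium. They then spent 1 h with 2% of the alkane n-decane and 1% uracil. Triton at 0.1% is also recorded for all 6 cultures. All libraries analysed here come from after the hour with decane. A difference present before decane therefore cannot be told apart from one that arose with it.

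Glycolysis splits glucose into pyruvate, and its lower part begins with the 3-carbon sugar phosphates. Most of its steps are reversible and also serve gluconeogenesis, which runs the other way when yeast grows on fatty acids or alkanes; pyruvate kinase works only downward. The pyruvate dehydrogenase complex then turns pyruvate into acetyl-CoA in the mitochondrion. Snf1 is the yeast member of the AMP-activated protein kinase family and is known, mainly from Saccharomyces cerevisiae, for switching on genes for carbon sources other than glucose.

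Library totals ranged from 32315239 to 38054417 counts. The labels were compared with the pattern that a deleted gene would leave: 1 count row, and no other, held over 1000 counts in every wild type library and 0 in every deletion library. That row was found by this pattern and not by a tie to SNF1, so it is not shown to be the deleted gene. SNF1 is at -11.31 on the log2 scale in the authors' deposited table, which rests on the authors' own grouping of the libraries. The factors of TMM scaling, which corrects library totals for a few very abundant features, were 0.781 to 0.941 for wild type libraries and 1.06 to 1.21 for deletion libraries. Raw shares of the library therefore place the deletion higher than TMM-scaled values do. Levels are given in CPM, which sets every library to a common total, after TMM scaling, with mean ± SD over 3 libraries per group. They are compared between libraries for the same gene and not between genes, since the count rows carry no lengths. In bulk RNA, fewer cells with a transcript and less of it per cell cannot be told apart.

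In the authors' deposited table the increase was largest for pyruvate kinase and smallest for triosephosphate isomerase. PYK1, which makes pyruvate and ATP from phosphoenolpyruvate, had a log2 fold change of 2.57 (SE 0.326), or 5.96-fold. ENO1 encodes enolase, which makes phosphoenolpyruvate in the step before, and stood at 1.78 (SE 0.342), or 3.44-fold, in the authors' deposited table. PDA1 encodes the E1 alpha subunit of pyruvate dehydrogenase and was at 1.16 (SE 0.327) there. TPI1 interconverts the pair of triose phosphates at the top of lower glycolysis and was at 0.87 (SE 0.310) there.

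Against the other genes listed as higher in the authors' deposited table, these have high counts, and their increases run from low to high rank. Those counts are not corrected for gene length. The mean normalised counts there were 21899 for ENO1, 11260 for TPI1, 11218 for PYK1 and 10668 for PDA1, against a median of 570.1 for all 1381 genes listed as higher. By log2 fold change, PYK1 ranked 231 of those 1381 genes, ENO1 581, PDA1 1078 and TPI1 1329. The median of the higher genes was 1.62, so PYK1 and ENO1 lie above it and PDA1 and TPI1 below. TPI1 was the member nearest to the threshold of 0.05 that admits a gene to the table (adjusted p = 0.0168 from DESeq2), and PYK1 the farthest from it (adjusted p = 8.09e-14).

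The remaining enzymes of the pathway were looked up by a list of 15 locus tags, 11 for glycolysis from hexokinase to pyruvate kinase and 4 for the subunits of pyruvate dehydrogenase. The list was compiled from general knowledge of the enzymes, and the files do not annotate its tags. Of the 15 tags, 4 are higher in the authors' deposited table, 0 are lower and 11 are not listed. The 4 are the members themselves, 3 of 11 in glycolysis and 1 of 4 in pyruvate dehydrogenase. Over all 7894 genes that the adjustment of those p-values implies, 17.5% are listed as higher and 18.5% as lower, and since the members were chosen from the same comparison nothing is read from their count. The 11 tags not listed cover hexokinase, glucokinase, glucose-6-phosphate isomerase, phosphofructokinase, aldolase, glyceraldehyde-3-phosphate dehydrogenase, phosphoglycerate kinase, phosphoglycerate mutase, the E1 beta subunit, the acetyltransferase and the dihydrolipoamide dehydrogenase. Their count rows could not be tied to a tag, so no level is given for them, and absence from the table does not show that they did not change.

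The counts of single libraries show how each increase is built. For TPI1 (row XM_505023.1) the wild type libraries held 291, 280.0 and 265 CPM in replicates 1, 2 and 3, and the deletion libraries 606, 374 and 534 CPM. The wild type values lie close together and the deletion values are spread, with replicate 2 the lowest. The means were 279 ± 13.2 CPM and 505 ± 119 CPM, and the lowest deletion library was 1.28 times the highest wild type library. This is the narrowest gap among the 3 tied genes.

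ENO1 (row XM_505509.1) held 488, 252 and 278 CPM in wild type and 1347, 933 and 1193 CPM in the deletion. Wild type replicate 1 stands above the other wild type libraries, and the groups do not overlap. The means were 339 ± 129 CPM and 1158 ± 209 CPM, a log2 fold change of 1.77 (SE 0.41) in edgeR. The test used in edgeR reports no SE. Each SE given with an edgeR value was back-calculated from the log2 fold change and the test statistic, and is approximate. The lowest deletion library was 1.91 times the highest wild type library.

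PDA1 (row XM_505675.1) held 198, 315 and 185 CPM in wild type and 510.3, 507 and 516 CPM in the deletion. Here wild type replicate 2 is the high one, and the deletion libraries are close together on this scale. By library size only they held 542, 612 and 590.0 CPM, with replicate 2 the highest, so their closeness depends on the TMM factors. The means were 233 ± 71.4 CPM and 511 ± 4.58 CPM, with a log2 fold change of 1.14 (SE 0.36) in edgeR. The coefficient of variation of PDA1 in the deletion was 0.895% with TMM and 6.19% by library size only, and in wild type 30.7% and 19.4%. For TPI1 it was 23.6% and 18.1% in the deletion, and 4.73% and 11.2% in wild type. A spread estimated from 3 libraries is itself uncertain.

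**Figure D1:**
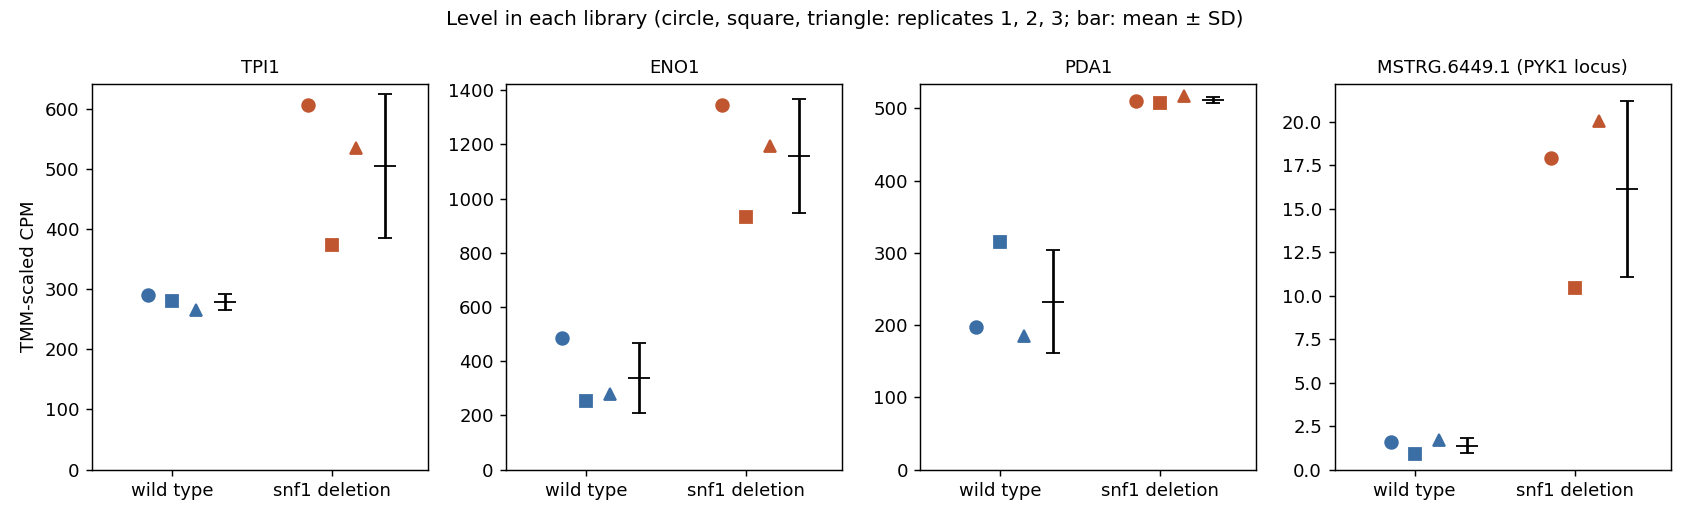
TMM-scaled CPM (vertical axes, each starting at 0) in the 3 wild type and 3 snf1 deletion libraries for the rows tied to TPI1, ENO1 and PDA1 and for the assembled transcript of the PYK1 locus; symbols are replicates 1, 2 and 3 and black bars are mean ± SD. In each panel every deletion library lies above every wild type library, from a gap of 1.28 times for TPI1 to 6.13 times for MSTRG.6449.1.

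In edgeR's quasi-likelihood test 2 of the 3 tied genes, ENO1 and PDA1, passed an adjusted p of 0.05, where 18.3% of the 7244 features tested were called higher and 18.7% lower. All 3 had deletion libraries above every wild type library, as did 24.9% of features. Both counts follow from the way the genes were chosen. TPI1 did not pass (log2 fold change 0.86, SE 0.35), though it is listed in the authors' deposited table. The rows of the 3 genes together held 0.0919, 0.0661 and 0.0677% of all counts in wild type and 0.261, 0.219 and 0.256% in the deletion.

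PYK1 has a different kind of record in the counts. Its row in the authors' deposited table carries the StringTie locus number MSTRG.6449, and StringTie's transcript MSTRG.6449.1 has the same number in the count files. That transcript held 50, 26 and 58 counts in wild type and 706, 435 and 739 in the deletion. In CPM the means were 1.38 ± 0.444 and 16.1 ± 5.04, a log2 fold change of 3.54 (SE 0.43) in edgeR. That estimate is of another kind than the deposited value. With DESeq2's shrunken estimate, which pulls uncertain values toward no change, the transcript was at 3.42, against 2.57 for the gene in the deposited table. On that measure too, the assembled transcript differs more between the groups than the gene does. Its mean is only 2.22% of the mean that the deposited PYK1 value corresponds to on the scale of the counts, where rows stand at a median of 1.23 times the deposited means. For TPI1, ENO1 and PDA1 the tied rows hold 99.5%, 97.5% and 100.1% of that mean. Those values are near 100% by construction, since the tie matched rows on the mean. Nearly all reads behind the deposited PYK1 value are therefore not in this row. The protein-coding row listed next in the count files, XM_505195.2, holds 0 counts in all 6 libraries, and whether it is PYK1 was not established. A low share in the assembled rows is not limited to PYK1: of 36 tagged loci of the deposited table that own an assembled transcript, 25 have under 10% of their mean in the assembled rows (median over the 36 loci 2.59%). Whether the remaining reads of those loci are in a RefSeq row was not examined.

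Ratios between genes within a library are free of the scaling between libraries. The counts of ENO1 were 1.68, 0.901 and 1.05 times those of TPI1 in wild type and 2.22, 2.50 and 2.23 times in the deletion. This ratio did not overlap between the groups, and its mean in the deletion was 1.92 times that in wild type. The counts of ENO1 and TPI1 therefore differed by unequal amounts between the groups under every scaling. Both genes were chosen on this comparison, with unequal deposited changes, and how often other pairs of features separate was not computed. The ratio of PDA1 to TPI1 was 0.681, 1.12 and 0.698 in wild type and 0.842, 1.36 and 0.967 in the deletion, and these values overlap. The ratio of PDA1 to ENO1 also overlapped, at 0.406, 1.25 and 0.664 in wild type and 0.379, 0.544 and 0.433 in the deletion. In both groups replicate 2 had the most PDA1 relative to TPI1 and to ENO1.

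**Figure D2:**
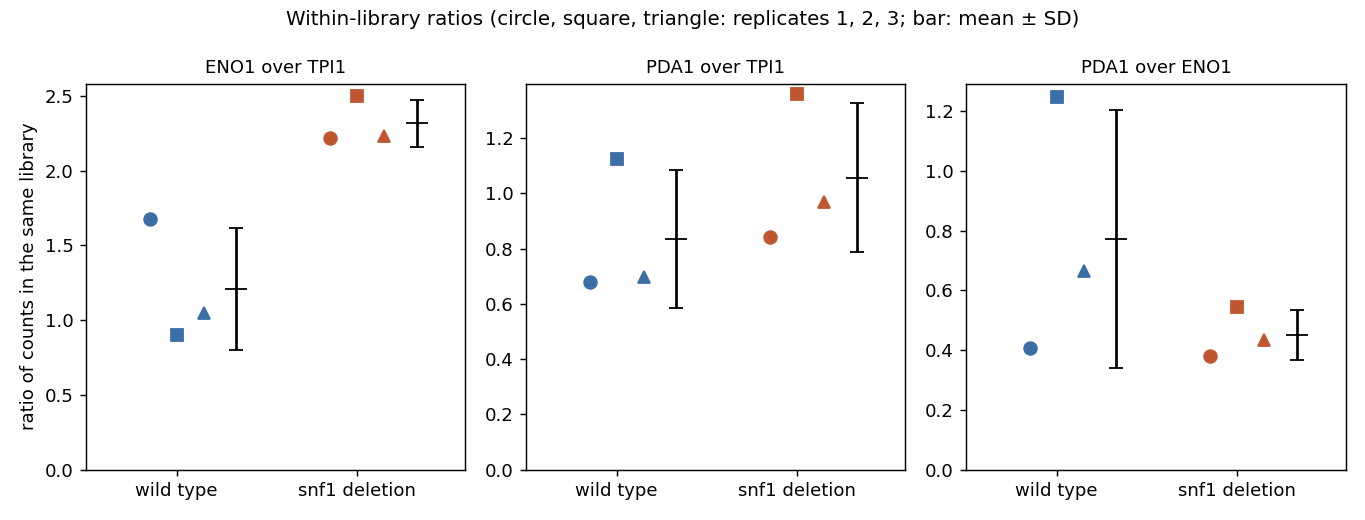
Ratio of counts of 2 genes in the same library (vertical axes, each starting at 0) for ENO1 over TPI1, PDA1 over TPI1 and PDA1 over ENO1; symbols are replicates 1, 2 and 3 and black bars are mean ± SD. The ratio of ENO1 to TPI1 separates the groups (0.901 to 1.68 against 2.22 to 2.50), and the other ratios overlap.

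The size of each increase depended on the scaling. A scaling applies the same factor to all features of a library, so a nearly equal shift of every feature is built in. With library size only, the log2 fold changes were 1.21 for TPI1, 1.53 for PDA1 and 2.10 for ENO1. With upper-quartile scaling they were 1.21, 1.52 and 2.11. The same settings moved the median of all features from 0.04 to 0.40 and 0.39. Relative to that median, TPI1 stood at 0.82 with TMM and at 0.81 to 0.82 with the other scalings. PDA1 stood at 1.10 with TMM and at 1.09 to 1.13 with the others, and ENO1 at 1.73 and at 1.70 to 1.74. With TMM, 25.0% of features had a higher log2 fold change than TPI1, 18.9% than PDA1 and 9.90% than ENO1. All 3 tied genes passed the test with library size only, with upper-quartile scaling, in the DESeq2 test and without deletion replicate 2. ENO1 alone passed without wild type replicate 1, wild type replicate 3 or deletion replicate 3.

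**Figure D3:**
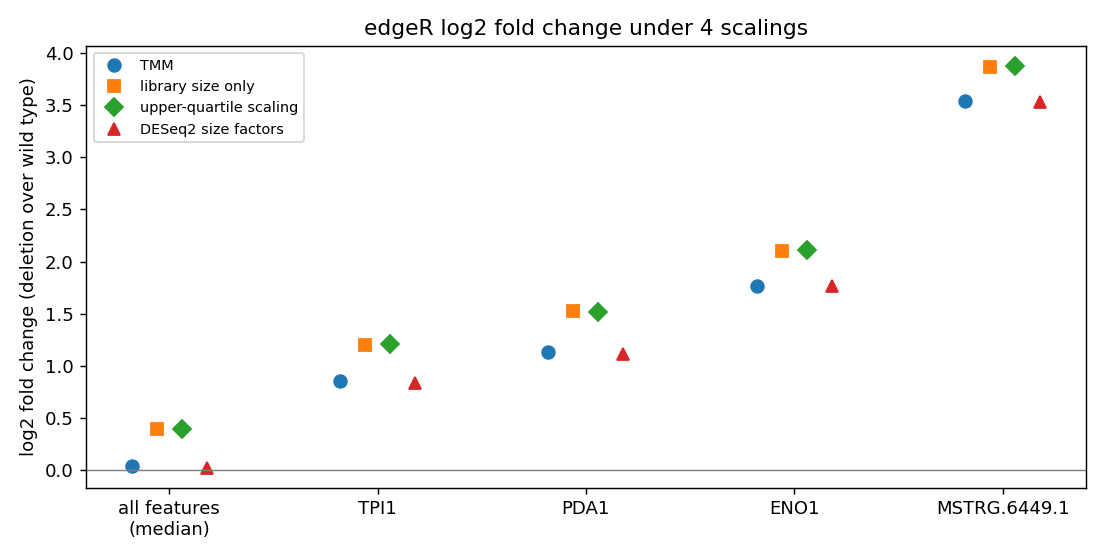
edgeR log2 fold change of the deletion over wild type (vertical axis) for the median of all features, the rows tied to TPI1, PDA1 and ENO1 and the transcript MSTRG.6449.1, under TMM, library size only, upper-quartile scaling and DESeq2 size factors. Library size only and upper-quartile scaling lift every entry by a similar amount, 0.36 and 0.35 for the median of all features, and the order of the entries is the same in the 4 scalings.

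The loci next in StringTie's numbering did not share 1 direction with the members in the authors' deposited table. Positions were not used, so loci next in number are not shown to be adjacent on the chromosome. The loci numbered on either side of TPI1 are YALI0_F05192g at 0.78 (SE 0.315) and YALI0_F05236g at 1.23 (SE 0.421), both higher as well. Those beside PYK1 in number are YALI0_F09163g at -1.37 (SE 0.448) and YALI0_F09229g at 1.71 (SE 0.312). Those beside ENO1 are YALI0_F16731g at -3.86 (SE 0.427) and MSTRG.6810, a locus with no tag, at 1.90 (SE 0.414). Neither locus next to PDA1 is listed in the authors' deposited table. Reads from overlapping or antisense neighbours cannot be told apart, because the use of strand in counting is not given in the sources used here.

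**Figure D4:**
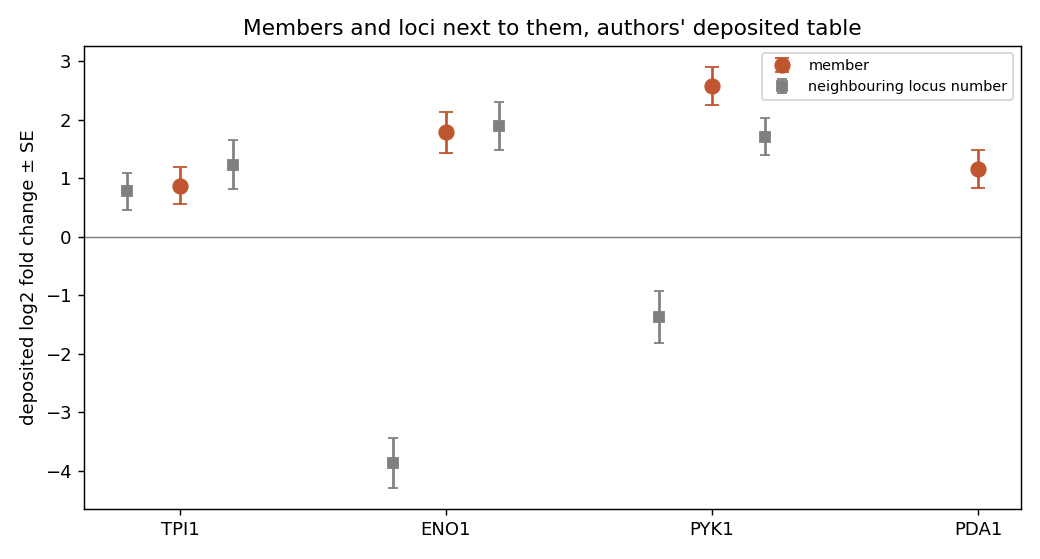
Log2 fold change ± SE of the deletion over wild type (vertical axis) in the authors' deposited table for TPI1, ENO1, PYK1 and PDA1 (circles) and for the loci numbered just before and after each (squares, left and right; none listed beside PDA1). The members range from 0.87 to 2.57, and the neighbours from -3.86 to 1.90.

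The features most like the mean profile of the 3 tied genes across the 6 libraries are given as a description. The tied genes were chosen as higher in the deletion, so features like them are higher there by construction. Likeness was Pearson's r of log2(CPM + 0.5) over 6 libraries, among the 2543 features whose mean reached 50 CPM. The difference between the groups dominates this measure. The closest was XM_499957.1 (r = 0.996), at 246 ± 26.1 CPM in wild type and 1142 ± 297 CPM in the deletion. It was followed by XM_502242.1 (r = 0.991), YALI0_D24431g (r = 0.989), the StringTie transcript MSTRG.7259.1 (r = 0.987) and XM_505351.1 (r = 0.987). In wild type and the deletion, XM_502242.1 held 50.5 ± 10.8 and 164 ± 32.8 CPM, and YALI0_D24431g 119 ± 40.7 and 905 ± 160 CPM. MSTRG.7259.1 held 64.1 ± 7.02 and 189 ± 55.7 CPM, and XM_505351.1 29.3 ± 5.35 and 132 ± 44.7 CPM. XM_505351.1 therefore reached the mean of 50 CPM only through the deletion libraries. The members' own r with that profile was 0.967 for TPI1, 0.959 for ENO1 and 0.927 for PDA1.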

How the data were processed

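RNA of 6 cultures was sequenced from directional libraries, per the labels' protocols. DESeq2 (2.11.40.7), StringTie, HISAT2 (2.2.1) and Trimmomatic (0.38.0) are listed in the submitters' processing notes. No build or strand setting is given in the sources used here. The authors deposited whole-number counts per transcript (9235 features in each library) and a DESeq2 table per StringTie locus. That table gives the mean normalised count (a signal value), a log2 fold change (entered as a score because of a stray last value), its standard error (a score), and unadjusted and adjusted p-values, per the file headers. Deposited positions were not used.

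The members and gene lists were chosen with earlier results of these data known. The named genes are the 4 members, SNF1, tied list genes, and the 5 features most like the members. Counts carry RefSeq accessions and the table carries locus tags. A tag was tied to the row on its chromosome (CLIB89(W29) RefSeq table; rows of unknown chromosome were also allowed) nearest in mean, in shrunken log2 fold change and in its standard error. Scales came from 324 of 536 untagged loci that share a StringTie number with a count row, those with a mean ratio of 1.15 to 1.35. A tie had to be mutual, under a distance of 3, with the next row at least 3 times as far. Distances were 1.36 for TPI1 (next 6.89), 1.52 for ENO1 (6.00) and 1.48 for PDA1 (6.54), against 8.31 for PYK1. Of 2109 tags, 835 were tied, and 98.6% of the tied tags with an older accession lay in accession order, which the tie did not use. The tied means and fold changes match the deposited ones by construction. The 7894 genes behind the deposited adjusted p-values follow from adjusted p times rank over p.

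Groups were compared with edgeR 4.0.16 (quasi-likelihood test, TMM, filterByExpr with a minimum count of 10, Benjamini-Hochberg adjustment) in R 4.3.3. The code was also run on simulated counts with few changed features, in random directions, and the same dispersion for all features. That setting is simpler than these data, so nothing about the results here is read from it. limma 3.58.1, DESeq2 1.42.0, other scalings and filters, a replicate block and leaving out each library were alternatives.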

Additional observations from a re-analysis of the deposited data

How the results depend on the processing

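The log2 fold changes of TPI1, ENO1, PDA1 and MSTRG.6449.1 were positive under every alternative run. PDA1 moved from 1.14 to 1.53 when scaled by library size only and to 1.52 by upper quartiles, and TPI1 from 0.86 to 1.21 with each. Leaving out 1 library gave 0.72 to 1.03 for TPI1, 1.61 to 2.12 for ENO1, 1.00 to 1.43 for PDA1 and 3.31 to 3.77 for MSTRG.6449.1, which was added after seeing the data. The number of tied members called higher was 2, and ranged from 1 to 3 when 1 library was left out; none was called lower in any setting (0 in each, by edgeR, limma-voom and DESeq2). Over all features, 1329 were called higher and 1356 lower; upper-quartile factors gave 2005 higher and 966 lower, library size only 1946 and 936, and leaving out 1 library 873 to 1351 higher and 951 to 1366 lower, with the lowest of both without deletion replicate 3. The share of calls that were higher was 49.5% with TMM and 67.5% both by library size only and by upper quartiles. With the replicate number as a block, TPI1 was at 0.83, ENO1 at 1.82 and PDA1 at 1.18, and 1412 features were called higher and 1342 lower. Deviations of same-numbered libraries correlated at 0.0507, 0.146 and 0.141, and those of differently numbered libraries at -0.160 to 0.0828. The same-numbered values were small but all positive, and whether the numbers pair the cultures was not tested. The main comparison did not pair them. PYK1 has no tied row, so its deposited value could not be recomputed. The low counts of MSTRG.6449.1 in wild type limit its precision, with a counting coefficient of variation of up to 19.6%.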
